A study of Homo sapiens with 9 samples.

Results

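The genes described here encode the subunits of the SWI/SNF (BAF) chromatin remodelling complexes, without the ATPases that were knocked out, and the ATPases of the other remodeller families. They were 44 listed genes out of 58237 in the annotation, 28 of them SWI/SNF subunits and 16 other remodeller ATPases, taken by gene name. RNA-seq gave their mRNA levels in H358, an established human line of non-small cell lung carcinoma of epithelial character, cultured in RPMI with fetal bovine serum. There were 3 groups of 3 libraries: cells whose SMARCA4 gene, coding for BRG1, was knocked out by CRISPR (BRG1 KO), cells whose SMARCA2 gene, coding for BRM, was knocked out by CRISPR (BRM KO), and the parental line itself. Guide sites, and whether a knockout line is 1 clone or a pool, were not given in the sources used here, so clonal or editing effects cannot be told apart from the loss of the gene. The replicates are numbered without saying whether they were separate cultures, so the spread behind each p-value is that of these libraries and may be technical. A bulk library cannot tell fewer cells of a kind from less RNA per cell.

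SWI/SNF complexes slide or evict nucleosomes with the energy of ATP. BRG1 or BRM is the motor of each complex, and the other subunits define 3 forms: canonical BAF (cBAF) with ARID1 and DPF proteins, PBAF with ARID2, PBRM1, BRD7 and PHF10, and non-canonical BAF (ncBAF) with BRD9 and a BICRA protein. Many subunits are encoded by paralogous genes whose products take the same place in the complex, and swaps between them accompany differentiation, for instance in nerve and muscle cells. ISWI, CHD and INO80 family ATPases act in complexes of their own, which space nucleosomes, deacetylate histones (NuRD) or exchange histone variants.

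The knocked-out genes checked the labels. SMARCA4 had 23.9, 21.2 and 23.6 CPM (TMM-scaled counts per 1e6 reads) in BRG1 KO, 239.8, 245 and 249 CPM in BRM KO, and 244, 216 and 212 CPM in parental libraries. SMARCA2 had 42.4, 32.0 and 61.3 CPM in BRG1 KO, 10.3, 12.0 and 9.36 CPM in BRM KO, and 49.3, 58.0 and 55.5 CPM in parental libraries. Each gene was low in the libraries of its own knockout and in no others. The mRNA of the remaining motor did not pass the test in either knockout (log2 fold change against parental -0.26 for SMARCA2 in BRG1 KO, edgeR adjusted p = 0.35, and 0.13 for SMARCA4 in BRM KO, adjusted p = 0.46).

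The libraries held 31964385 to 40673480 estimated reads. Within BRG1 KO the replicates differed by transcript length. The 20 tested members of over 5000 bases had a median deviation from the parental mean of -0.36, -0.72 and 0.16 log2 in BRG1 KO replicates 1, 2 and 3, against -0.07, -0.01 and 0.00 in the BRM KO libraries. All 2688 tested genes of that length gave -0.21, -0.46 and 0.19 in the BRG1 KO libraries, so the shift was not confined to remodellers, and the 22 shorter members lay between -0.01 and 0.14. The fits therefore carry a wide spread for long genes, among them most CHD and INO80 family members, ARID1A, ARID2 and PBRM1. The parts that RNA quality and library preparation had in this shift were not tested. The cell line's own state also differed. The 10 epithelial markers summed to 443 to 1378 CPM in BRG1 KO, 6871 to 7959 CPM in BRM KO and 7057 to 7331 CPM in parental libraries, and 9 of 10 fell in BRG1 KO by the edgeR test. Fibroblast markers summed to 394 to 1028 CPM in BRG1 KO, 83.0 to 127 CPM in BRM KO and 31.6 to 63.1 CPM in parental libraries, with 4 of 7 tested markers higher in BRG1 KO and DCN at 3 reads or fewer in BRM KO and parental libraries. Blood cell markers summed to at most 58.5 CPM in any library, and CD3E, CD3D, MS4A1 and HBA1 had 3 reads or fewer in every group. By the edgeR test, 3 of 8 tested neuronal genes rose and 1 fell in BRG1 KO, and 2 rose in BRM KO. Of 7 tested muscle genes, 2 rose and 1 fell in BRG1 KO, and 2 rose in BRM KO. Of all tested genes, 21.6% rose and 21.9% fell in BRG1 KO, and 21.0% rose in BRM KO. STMN2, ELAVL4, NEFL, CHGA, MYF5 and NKX2-5 had 3 reads or fewer in every group.

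**Figure D1:**
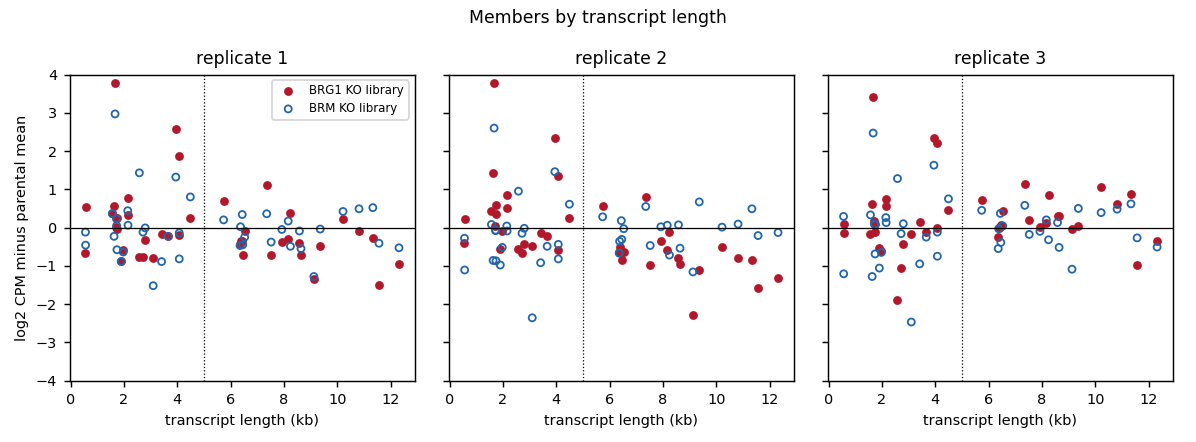
Members by transcript length. The x axis gives the length of each member's transcript in kilobases (kb), the y axis its log2 CPM minus the mean of the parental libraries. Filled points show the BRG1 KO and open points the BRM KO library of each replicate number. Whether the numbers pair the libraries was not given. To the right of the dotted line at 5000 bases, the BRG1 KO points lie mostly below 0 in replicates 1 and 2 (medians -0.36 and -0.72) and not in replicate 3 (0.16).

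In parental cells the members spanned a wide range of levels per length. CHD4, the NuRD motor, had the highest mean at 196 ± 27.3 TPM (SD, n = 3), above every other member in each library. SMARCB1, SMARCD2 and ACTL6A followed at 114 ± 12.0, 112 ± 2.52 and 104 ± 14.9 TPM, and these 3 overlapped. Among further core subunits, SMARCC1 and SMARCE1 lay at 80.3 ± 1.78 and 79.3 ± 4.25 TPM. SMARCD1 and SMARCC2 were lower, at 64.7 ± 4.91 and 59.1 ± 6.08 TPM. At the low end stood SMARCD3 at 0.942 ± 0.605 TPM, CHD5 at 0.323 ± 0.351 TPM and DPF3 at 0.182 ± 0.0496 TPM. CHD5, at 0.0788 to 0.725 TPM, overlapped both SMARCD3 and DPF3. ACTL6B, the neuronal counterpart of ACTL6A, had 0 reads in all 9 libraries. BCL11B had 13 reads over the BRG1 KO libraries, 1 over the BRM KO libraries and 1 over the parental libraries. These 2 genes failed the filter on low counts, which left 42 members tested.

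In BRG1 KO against parental, 8 of the 42 tested members rose and 7 fell (edgeR adjusted p under 0.05), beside 21.6% of all tested genes that rose and 21.9% that fell. The members' median log2 fold change was -0.21, against -0.01 over all genes. In BRM KO, 5 members rose and 8 fell, beside 21.0% and 16.4% of all genes, with a median of -0.06 against 0.09. With all libraries in the fit, the members' shares are near these backgrounds, except that a smaller share of members rose in BRM KO. No test compared the shares, and the counts moved with the libraries and settings used. Without BRG1 KO replicate 3, the count of members that fell was 19 in BRG1 KO and 17 in BRM KO, whose tests draw on the spread of all libraries, beside 26.7% and 22.2% of all genes tested in that fit. With BRG1 KO replicates 1 and 2 left out instead, 4 fell in BRG1 KO, beside 15.6% of all genes. Without parental replicate 3, 4 fell in each knockout, beside 16.8% of all genes in BRG1 KO and 11.2% in BRM KO. Without parental replicate 2 or BRM KO replicate 1, 3 rose in BRM KO, beside 13.1% and 14.1% of all genes. Of the 15 calls in BRG1 KO, 10 passed with any 1 library left out, and of the 13 in BRM KO, 7 did.

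**Figure D2:**
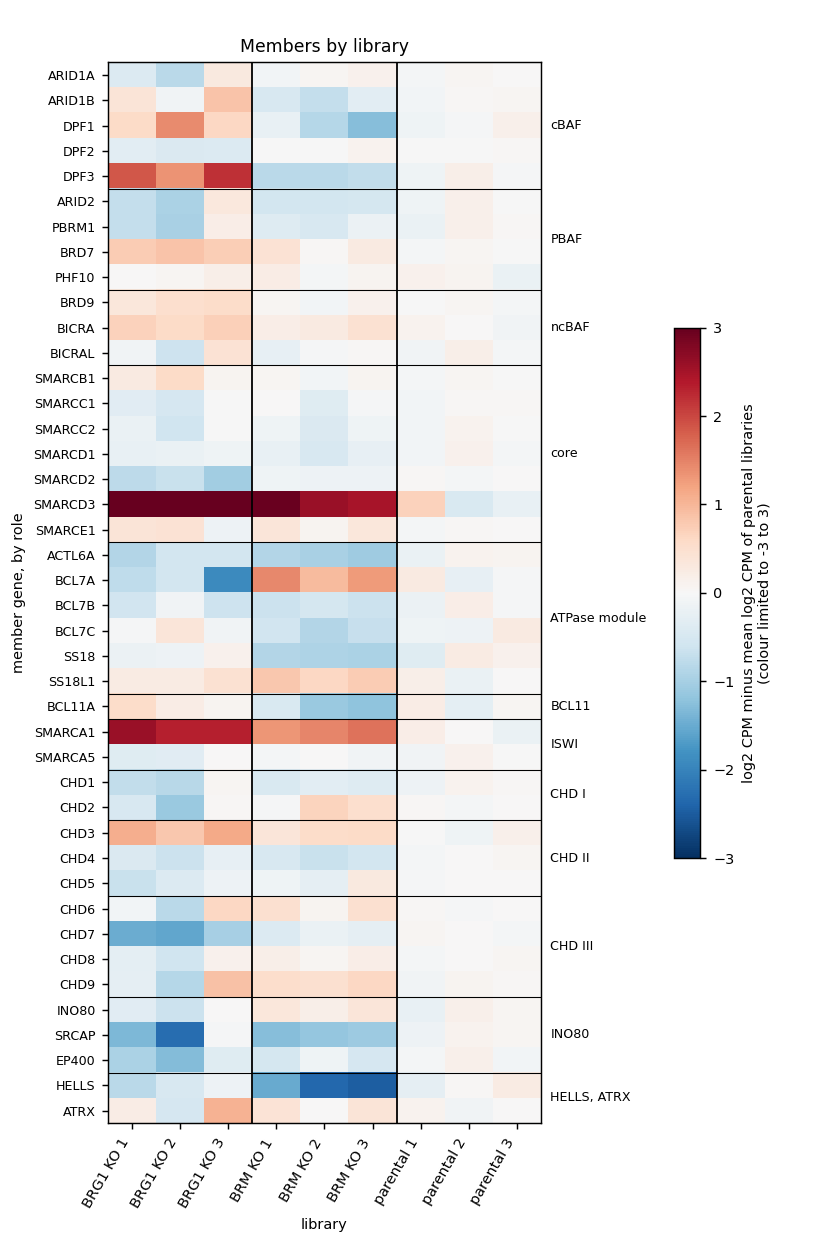
The 42 tested members in the 9 libraries. Rows are genes ordered by role, columns are libraries, and colour gives log2 CPM minus the mean log2 CPM of the parental libraries, limited to -3 to 3. SMARCD3 and SMARCA1 are red in all 6 knockout libraries, DPF3 and BCL7A have opposite colours in the 2 knockouts, and HELLS is blue in BRM KO.

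**Figure D3:**
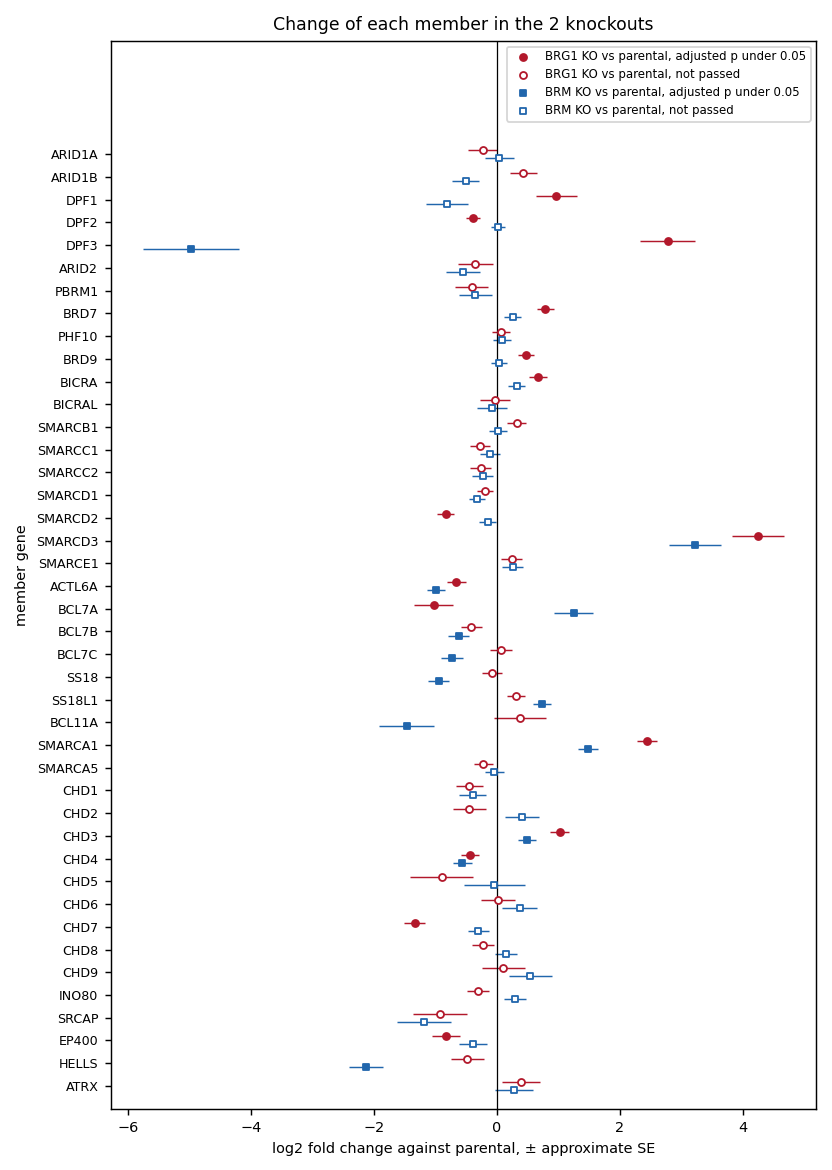
Log2 fold change of each tested member against parental, with its approximate SE. Circles stand for BRG1 KO and squares for BRM KO, filled where the edgeR adjusted p was under 0.05; the fitted BRM KO value of DPF3 rests on 1 read. SMARCD3 lies farthest to the right in both comparisons (4.25 and 3.23).

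Among the cBAF subunits, the double PHD finger proteins changed and ARID1A did not pass in either knockout with all libraries in the fit. DPF proteins read acylated histone H3. DPF3, known for its role in heart and skeletal muscle, had 2.73, 1.74 and 3.57 CPM in BRG1 KO, 0, 0 and 0.0253 CPM in BRM KO, and 0.307, 0.496 and 0.358 CPM in parental libraries. The 3 groups did not overlap: all BRG1 KO libraries were above, and all BRM KO libraries below, every parental library. The rise in BRG1 KO had a log2 fold change of 2.78 (approximate SE 0.45, edgeR adjusted p = 6.6e-04). In BRM KO a single read remained over 3 libraries, against 44 reads in parental libraries, a parental-to-BRM KO ratio of 42.9 with a 95% counting interval of 7.31 to 1733. The edgeR adjusted p was 8.8e-04 there, and the call was lost on log2(TPM + 1), where such low levels hardly register (adjusted p = 0.35).

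DPF1, a DPF paralogue best known from neurons, had 9.52, 17.5 and 9.90 CPM in BRG1 KO, 5.28, 3.22 and 2.28 CPM in BRM KO, and 5.71, 6.11 and 7.04 CPM in parental libraries. BRG1 KO libraries were the highest and BRM KO libraries the lowest, with no overlap. Its rise in BRG1 KO (log2 0.97, SE 0.33, edgeR adjusted p = 0.035) was lost without any 1 of the 3 parental libraries or without BRG1 KO replicate 2 (adjusted p up to 0.2), and kept in 11 of 21 alternatives. Its value in BRM KO (-0.81) did not pass (adjusted p = 0.082). DPF2, the widespread family member, fell slightly in BRG1 KO (log2 -0.39, edgeR adjusted p = 0.022) to 71.4 to 77.2 CPM, against 94.8 to 98.4 CPM in parental libraries. That call was lost without parental replicate 2 or 3 (adjusted p up to 0.083). In BRM KO, DPF2 stayed at 94.8 to 103 CPM. Within 2 Mb of DPF2, the 140 tested genes had medians of -0.34 in BRG1 KO and 0.25 in BRM KO. The part of the locus was not tested.

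The ARID1 proteins bind DNA and hold the cBAF core together, and ARID1A is often mutated in cancer. ARID1B had 104, 73.9 and 145 CPM in BRG1 KO, 56.5, 48.1 and 63.7 CPM in BRM KO, and 74.7, 81.7 and 82.7 CPM in parental libraries. Neither knockout passed against parental (log2 0.43 and -0.51, edgeR adjusted p = 0.13 and 0.093), whereas BRG1 KO exceeded BRM KO by 0.94 log2 (adjusted p = 0.0054), a call kept in every alternative run. ARID1A had 119.8 to 259 CPM in BRG1 KO, 197 to 229 CPM in BRM KO and 199.7 to 219 CPM in parental libraries. It was lower in BRG1 KO once BRG1 KO replicate 3 was left out. The values were then -0.67 log2 against parental and -0.61 against BRM KO (edgeR adjusted p = 0.0037 and 0.0058). That fit keeps replicates 1 and 2, in which long transcripts were low. With replicate 3 as the only BRG1 KO library, the values were 0.32 and 0.37. With all libraries and the GC content and length correction, ARID1A was 0.24 in BRG1 KO against BRM KO (edgeR adjusted p = 0.14).

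Of the 4 PBAF subunits, 1 was called. BRD7, a bromodomain protein with ties to p53 signalling, had 143, 151 and 139.5 CPM in BRG1 KO, 113, 85.7 and 100.4 CPM in BRM KO, and 80.6, 87.3 and 82.8 CPM in parental libraries. All BRG1 KO libraries were above the rest (log2 0.79, SE 0.14, edgeR adjusted p = 0.0011), while BRM KO did not pass (0.26, adjusted p = 0.17). On log2(TPM + 1) the BRD7 call was lost (limma, 0.42, adjusted p = 0.091). BRD7 shares 42.3% of its exonic bases with ADCY7 on the opposite strand. ADCY7 had 50.8, 35.2 and 90.3 CPM in BRG1 KO and 41.5 to 49.7 CPM in parental libraries, and as the strand setting was not given in the sources used here, their reads cannot be told apart. Within 2 Mb of BRD7, the 13 tested genes had medians of 0.58 in BRG1 KO and 0.50 in BRM KO. The part of the locus was not tested. PHF10 did not pass (log2 0.07 in BRG1 KO and 0.08 in BRM KO). ARID2 and PBRM1, the targeting subunits, split by library: PBRM1 had 56.0, 46.1 and 106 CPM in BRG1 KO, 65.8 to 80.8 CPM in BRM KO and 79.6 to 102 CPM in parental libraries. Without BRG1 KO replicate 3, PBRM1 and ARID2 were lower in BRG1 KO, at -0.93 and -0.92 log2 (edgeR adjusted p = 0.001 and 5.7e-04). With replicate 3 as the only BRG1 KO library, the values were 0.21 and 0.32. Against BRM KO, the GC content and length correction gave 0.16 for PBRM1 (edgeR adjusted p = 0.32) and 0.48 for ARID2 (adjusted p = 0.0079).

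Among the 3 ncBAF subunits, BRD9 and BICRA rose in BRG1 KO. BRD9 is the bromodomain subunit that marks this form, and BICRA (GLTSCR1) belongs to it as well. BICRA had 37.4, 34.5 and 38.1 CPM in BRG1 KO, 26.5, 28.0 and 31.6 CPM in BRM KO, and 24.7, 23.0 and 21.4 CPM in parental libraries. In CPM the groups did not overlap, in the order BRG1 KO, BRM KO, parental. The edgeR test passed for BRG1 KO (log2 0.67, adjusted p = 0.0028) and not for BRM KO (0.32, adjusted p = 0.094). In TPM, BRG1 KO had 12.4, 7.84 and 18.7, overlapping both BRM KO (11.0 to 14.2) and parental libraries (9.23 to 11.3). With the GC content and length correction, the BICRA value in BRM KO was -0.33 (edgeR adjusted p = 0.054). BRD9 had 64.4 to 74.8 CPM in BRG1 KO, 47.9 to 55.7 CPM in BRM KO and 48.9 to 53.2 CPM in parental libraries (log2 0.47 in BRG1 KO, adjusted p = 0.013). The BRD9 call was lost without parental replicate 3, BRG1 KO replicate 3 or BRM KO replicate 1 (adjusted p up to 0.065), with no filter on low counts (adjusted p = 0.11) and on log2(TPM + 1) (limma, adjusted p = 0.34). The BICRA call was lost with the effective transcript length as an offset (adjusted p = 0.12) and on log2(TPM + 1) (adjusted p = 0.52). BICRAL, the BICRA paralogue, did not pass in either knockout (-0.03 and -0.08). Within 2 Mb of BICRA, the 125 tested genes had medians of 0.50 in BRG1 KO and 0.33 in BRM KO. Around BRD9, the 31 tested genes had medians of 0.45 and 0.25. The part of the locus in either result was not tested.

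The core held the largest rise of the tested members against parental in both knockouts. SMARCD proteins (BAF60) link the complexes to transcription factors, and SMARCD3 (BAF60C) is the form known from heart and skeletal muscle. SMARCD3 had 16.5, 16.3 and 12.6 CPM in BRG1 KO, 9.12, 6.96 and 6.28 CPM in BRM KO, and 1.47, 0.391 and 0.549 CPM in parental libraries. Every knockout library exceeded every parental library, and every BRG1 KO library exceeded every BRM KO library. The log2 fold change was 4.25 (SE 0.43, edgeR adjusted p = 3.2e-05) in BRG1 KO and 3.23 (SE 0.42, adjusted p = 3.5e-04) in BRM KO, and both calls held in all 21 alternatives. The difference between the knockouts (1.02, adjusted p = 0.042) was lost without BRG1 KO replicate 1 or 2 or BRM KO replicate 2 or 3 (adjusted p up to 0.13), and with the effective length offset or on log2(TPM + 1) (adjusted p = 0.098 and 0.062). It was kept in 14 of 21 alternatives, over which the value ranged from 0.67 to 1.21 log2. SMARCD3 ends next to CHPF2, and the genes share 64 of 5198 exonic bases (1.23%) on opposite strands. CHPF2 had 104 to 124 CPM in BRG1 KO, 87.5 to 96.0 CPM in BRM KO and 67.3 to 72.8 CPM in parental libraries.

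The reads of SMARCD3 were spread over several transcripts. SMARCD3-202, which encodes protein, had 5.62, 7.30 and 4.34 TPM in BRG1 KO, 3.46, 2.35 and 1.04 TPM in BRM KO, and 0.382, 0 and 0 TPM in parental libraries. SMARCD3-203 leaned to BRM KO instead, with 1.57, 0.545 and 1.22 TPM in BRG1 KO, 3.13, 1.57 and 3.18 TPM in BRM KO, and 0.227, 0 and 0 TPM in parental libraries. SMARCD3-201 had 3.14, 1.81 and 4.19 TPM in BRG1 KO and at most 0.573 TPM in any BRM KO or parental library. Salmon's split between such overlapping transcripts is itself an estimate, and these values carry no test.

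SMARCD2 (BAF60B), the paralogue that leads this family in parental cells, moved the other way in BRG1 KO. It had 103, 111 and 85.4 CPM in BRG1 KO, 163, 159 and 159 CPM in BRM KO, and 182, 171 and 179 CPM in parental libraries. All BRG1 KO libraries were below all others (log2 -0.83, SE 0.14, edgeR adjusted p = 7.2e-04), a call kept in all 21 alternatives, and the direct difference from BRM KO was -0.68 (adjusted p = 0.0021). BRM KO did not pass against parental (-0.15, adjusted p = 0.43). The other core members, SMARCB1, SMARCC1, SMARCC2, SMARCD1 and SMARCE1, had log2 fold changes of -0.28 to 0.32 in BRG1 KO and -0.32 to 0.26 in BRM KO, and did not pass. Without BRG1 KO replicate 3, the scaffold genes SMARCC1 and SMARCC2 passed in BRG1 KO, at -0.49 and -0.46 (edgeR adjusted p = 0.019 and 0.036). Against BRM KO, the GC content and length correction over all libraries gave 0.05 and 0.16 (edgeR adjusted p = 0.74 and 0.39).

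In the ATPase module, the actin-like and accessory proteins that sit on the motor, all 6 tested members were called in BRM KO, 2 higher and 4 lower, beside 21.0% and 16.4% of all tested genes. In BRG1 KO, 2 were called, both lower, beside 21.9% of all genes. ACTL6A (BAF53A), an actin-related subunit of proliferating and progenitor cells, had 50.7, 64.0 and 64.3 CPM in BRG1 KO, 50.4, 47.3 and 44.8 CPM in BRM KO, and 81.9, 101 and 99.6 CPM in parental libraries. All 6 knockout libraries lay below all parental ones. The log2 fold change was -0.66 in BRG1 KO (SE 0.15, edgeR adjusted p = 0.0046) and -0.99 in BRM KO (SE 0.15, adjusted p = 7.2e-04). The BRG1 KO call just missed with replicate 3 as its only library (-0.54, adjusted p = 0.052).

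BCL7A was called in opposite directions. BCL7 proteins bind nucleosomes within the ATPase module, and BCL7A is known from mutations in lymphoma. BCL7A had 7.42, 8.60 and 3.10 CPM in BRG1 KO, 35.7, 25.3 and 32.1 CPM in BRM KO, and 15.7, 10.8 and 12.6 CPM in parental libraries. The 3 groups did not overlap, with BRM KO highest and BRG1 KO lowest. Its log2 fold change was -1.03 in BRG1 KO (SE 0.32, edgeR adjusted p = 0.024) and 1.25 in BRM KO (SE 0.32, adjusted p = 0.011), and the direct difference of -2.28 (adjusted p = 2.7e-04) held in all 21 alternatives. The BRG1 KO call was lost without parental replicate 1 or 3 (adjusted p up to 0.075) or without the BRM KO libraries (0.051), and the BRM KO call without parental replicate 2 or BRM KO replicate 1 (up to 0.054).

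The paralogues BCL7B and BCL7C fell in BRM KO. BCL7B had 33.7 to 36.9 CPM in BRM KO and 46.8 to 61.6 CPM in parental libraries (log2 -0.62, edgeR adjusted p = 0.017), and BCL7C had 25.7 to 31.6 CPM in BRM KO and 42.9 to 57.4 CPM in parental libraries (-0.73, adjusted p = 0.0087). The BCL7B call was lost without parental replicate 2 or 3 or BRM KO replicate 3 (adjusted p up to 0.083), and the BCL7C call without parental replicate 3 (0.051). The 124 tested genes within 2 Mb of BCL7C had a median of -0.48 log2 in BRM KO themselves, and the part of copy number or of the locus was not tested.

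SS18 and SS18L1 (CREST) are paralogous coactivator subunits, SS18L1 being known from neurons. SS18 had 65.1, 66.1 and 80.9 CPM in BRG1 KO, 39.4, 38.5 and 37.8 CPM in BRM KO, and 56.5, 87.0 and 80.4 CPM in parental libraries. BRM KO libraries were below all others, while BRG1 KO and parental libraries overlapped. SS18 changed by -0.95 log2 in BRM KO (SE 0.17, edgeR adjusted p = 0.002) and -0.08 in BRG1 KO (adjusted p = 0.74). SS18L1 rose in BRM KO, to 32.6 to 37.3 CPM against 18.6 to 24.0 CPM in parental libraries (log2 0.73, adjusted p = 0.0037), a call lost on log2(TPM + 1) (limma, 0.41, adjusted p = 0.15). In BRG1 KO, SS18L1 had 25.2 to 29.2 CPM and did not pass (0.31, adjusted p = 0.11).

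BCL11A, a zinc finger protein that joins BAF complexes and is expressed in blood, brain and squamous lung tumours, was near the detection limit. It had 2.10, 1.60 and 1.41 CPM in BRG1 KO, 0.805, 0.331 and 0.278 CPM in BRM KO, and 1.60, 0.965 and 1.38 CPM in parental libraries. BRM KO lay below the parental libraries (log2 -1.47, SE 0.45, edgeR adjusted p = 0.025), a call on 52 reads against 147, lost without parental replicate 1 or 3 or BRM KO replicate 2 or 3 (adjusted p up to 0.098). BRG1 KO and parental libraries overlapped.

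**Figure D4:**
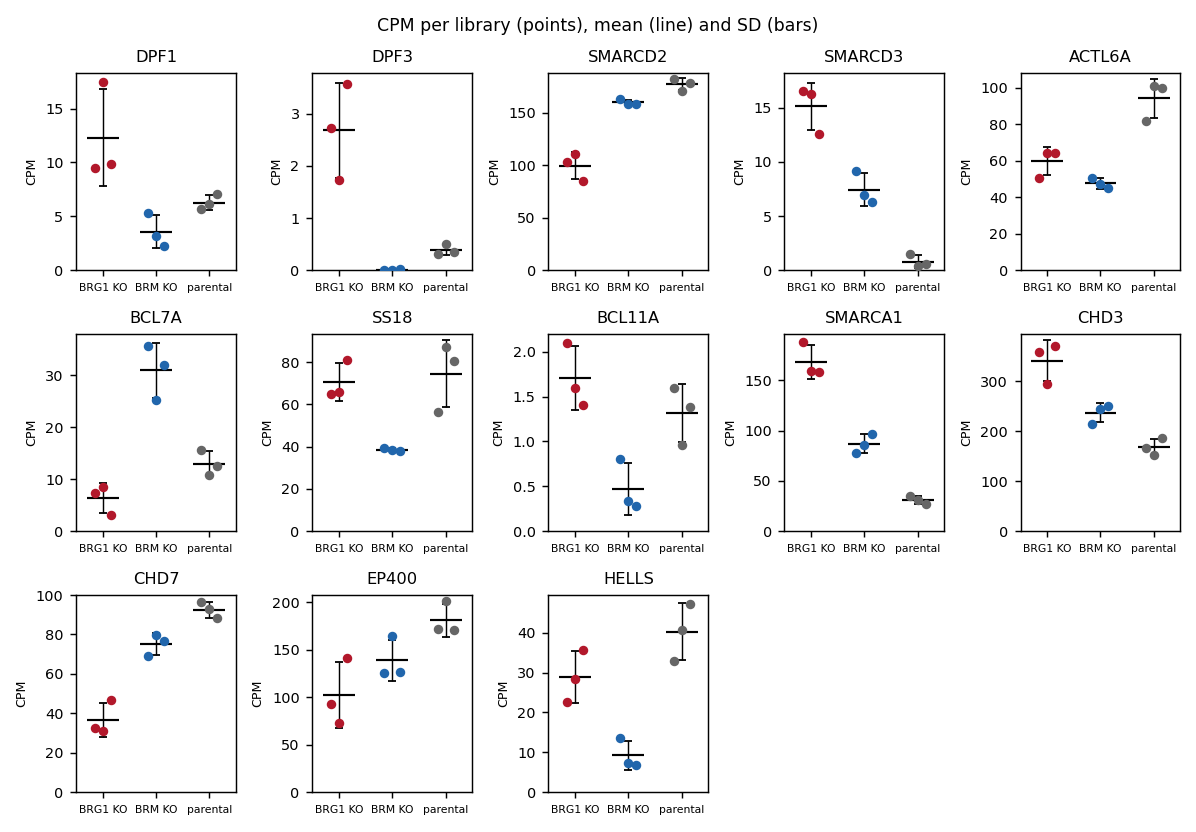
CPM of the 13 members with the larger called changes, with y axes from 0. Points are libraries, lines group means and bars SD; groups run BRG1 KO, BRM KO, parental. SMARCD3 and SMARCA1 are highest in BRG1 KO and lowest in parental libraries (SMARCA1 158 to 188 and 27.1 to 35.3 CPM), and HELLS and SS18 are lowest in BRM KO.

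Outside SWI/SNF, SMARCA1 gave the clearest change. SMARCA1 (SNF2L) is the ISWI ATPase associated with differentiating, for instance neuronal, cells, and SMARCA5 (SNF2H) is its paralogue in dividing cells. SMARCA1 had 188, 159 and 158 CPM in BRG1 KO, 77.9, 86.2 and 97.0 CPM in BRM KO, and 35.3, 31.0 and 27.1 CPM in parental libraries. The 3 groups were far apart and did not overlap. The log2 fold change was 2.44 in BRG1 KO (SE 0.16, edgeR adjusted p = 2.6e-06), 1.48 in BRM KO (SE 0.16, adjusted p = 1.5e-04) and 0.95 between the knockouts (adjusted p = 5.3e-04), and all 3 calls held in all 21 alternatives. Its 3 leading protein-coding transcripts were each above the parental values in all 6 knockout libraries, and SMARCA1-203 had 39.5, 29.3 and 34.4 TPM in BRG1 KO, 14.7, 11.7 and 18.2 TPM in BRM KO, and 7.01, 7.18 and 6.41 TPM in parental libraries. SMARCA5 did not pass (log2 -0.22 and -0.04). The 12 tested genes within 2 Mb of SMARCA1 had medians of 0.10 in BRG1 KO and -0.19 in BRM KO.

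The promoters of 4 members whose changes stood out are shown as RefSeq windows of 300 bases (250 before to 50 after the start) on GRCh38.p14: SMARCD3 and SMARCA1, higher in both knockouts in all 21 alternatives, BCL7A, one of the subunits called in opposite directions, and HELLS, lower in BRM KO. Of the 44 members, 36 had 56 windows in the table used. For SMARCD3, which had 3 windows, the one at the start of SMARCD3-202 is shown. Capitals in HELLS mark, in order, a CCAAT box (CCAAT), an E2F-type match on the reverse strand (GCGCCAAA), a TEAD-type match (GGAATG) and an E2F-type match (TTTCCCGC). SMARCD3 lies at chr7:151276685-151276984 and SMARCA1 at chrX:129523441-129523740, both on the minus strand, and BCL7A at chr12:122021634-122021933 and HELLS at chr10:94545538-94545837, both on the plus strand.
SMARCD3: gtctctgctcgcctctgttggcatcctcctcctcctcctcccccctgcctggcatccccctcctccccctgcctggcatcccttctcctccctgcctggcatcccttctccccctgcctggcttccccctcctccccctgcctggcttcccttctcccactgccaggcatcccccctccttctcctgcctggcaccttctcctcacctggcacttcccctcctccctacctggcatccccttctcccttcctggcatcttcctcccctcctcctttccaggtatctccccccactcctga
SMARCA1: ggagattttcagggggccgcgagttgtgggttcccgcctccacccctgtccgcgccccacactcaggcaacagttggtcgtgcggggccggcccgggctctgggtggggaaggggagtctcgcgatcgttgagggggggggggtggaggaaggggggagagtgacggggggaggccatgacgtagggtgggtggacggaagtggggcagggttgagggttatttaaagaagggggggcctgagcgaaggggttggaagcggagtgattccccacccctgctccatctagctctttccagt
BCL7A: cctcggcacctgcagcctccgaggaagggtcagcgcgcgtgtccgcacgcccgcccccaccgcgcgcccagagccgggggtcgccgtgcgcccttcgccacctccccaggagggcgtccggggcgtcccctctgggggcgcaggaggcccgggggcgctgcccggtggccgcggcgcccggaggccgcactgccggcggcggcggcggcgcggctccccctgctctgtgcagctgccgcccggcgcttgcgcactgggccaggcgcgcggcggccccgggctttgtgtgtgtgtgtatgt
HELLS: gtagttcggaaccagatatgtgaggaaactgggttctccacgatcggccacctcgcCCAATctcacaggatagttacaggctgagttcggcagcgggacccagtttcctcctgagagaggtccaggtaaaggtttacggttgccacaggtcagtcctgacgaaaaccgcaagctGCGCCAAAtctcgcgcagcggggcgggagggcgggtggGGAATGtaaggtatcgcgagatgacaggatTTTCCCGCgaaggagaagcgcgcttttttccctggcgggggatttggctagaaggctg

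The 4 windows differ in CpG dinucleotides, with 1 in SMARCD3, 17 in SMARCA1, 44 in BCL7A and 22 in HELLS, against a median of 14.0 over all 35116 windows and 27.5 over the members' windows. Motif letters were searched on both strands. The E2F letters (TTTCCCGC or TTTGGCGC) stood in 2.27% of all windows and in 2 of 56 member windows. The TEAD letters (GGAATG) stood in 14.0% of all windows and in 5 of the members', the AP-1 letters (TGANTCA) in 7.71% and in 1. The SP1 letters (GGGCGG) stood in 45.0% of all windows and in 43 of the members' (76.8%), with 2 matches each in BCL7A and HELLS, and the CCAAT box in 34.6% and in 19. The SMARCD3 and SMARCA1 windows held none of these letters. A match describes the letters only.

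In the NuRD ATPase family, CHD3 rose and CHD4 fell. CHD3 and CHD4 are alternative motors of NuRD, and CHD4 is the form most cells use. CHD3 had 359, 294 and 371 CPM in BRG1 KO, 215, 245 and 251 CPM in BRM KO, and 167, 153 and 186 CPM in parental libraries. The groups did not overlap, in that order. The log2 fold change was 1.02 in BRG1 KO (SE 0.15, edgeR adjusted p = 3.6e-04), kept in all 21 alternatives. In BRM KO it was 0.49 (SE 0.15, adjusted p = 0.024), which was lost with parental replicate 1 or 2, BRG1 KO replicate 1 or any BRM KO library left out (adjusted p up to 0.11), with no filter (0.13) and with the GC content and length correction (0.25). The 99 tested genes within 2 Mb of CHD3 had medians of 0.56 in BRG1 KO and 0.42 in BRM KO. The part of the locus was not tested.

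CHD4 had 541, 470.3 and 619.9 CPM in BRG1 KO, 532, 463 and 503 CPM in BRM KO, and 702, 736 and 768 CPM in parental libraries. All knockout libraries were below all parental ones, with a difference of -0.44 log2 in BRG1 KO (SE 0.15, edgeR adjusted p = 0.034) and -0.56 in BRM KO (SE 0.15, adjusted p = 0.013). The BRG1 KO call depended on how reads are scaled by length: with effective lengths as an offset, the value was 0.15 (adjusted p = 0.55), and on log2(TPM + 1) it was -0.06 (limma adjusted p = 0.79). CHD4-249, a short transcript of 1564 bases without a coding label, had 39.3, 79.2 and 1.75 TPM in BRG1 KO, 2.27, 0.423 and 0.275 TPM in BRM KO, and 3.22, 0 and 0 TPM in parental libraries. The leading coding transcript, CHD4-248, had 31.0, 11.6 and 53.2 TPM in BRG1 KO, 46.3, 45.1 and 43.8 TPM in BRM KO, and 68.0, 67.5 and 74.9 TPM in parental libraries. The BRG1 KO call was also lost without parental replicate 2 or 3, BRG1 KO replicate 1 or BRM KO replicate 3 (adjusted p up to 0.11), and the BRM KO call without parental replicate 3 (0.059). CHD5, a neuronal NuRD motor, stayed at 0.734 CPM or less in every library and did not pass.

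Of the class III CHD proteins, CHD7 fell in BRG1 KO. CHD7 binds enhancers and its mutation causes CHARGE syndrome. CHD7 had 32.7, 30.8 and 46.5 CPM in BRG1 KO, 69.2, 79.9 and 76.6 CPM in BRM KO, and 96.5, 92.8 and 88.3 CPM in parental libraries. The 3 groups did not overlap, and BRG1 KO replicate 3, in which long transcripts were not low, was below every BRM KO and parental library too. CHD7 changed by -1.34 log2 (SE 0.17, edgeR adjusted p = 1.4e-04), with -1.04 against BRM KO (adjusted p = 5.7e-04), and both calls held in all 21 alternatives. In BRM KO it was -0.30 and did not pass (adjusted p = 0.18). The 8 tested genes within 2 Mb had a median of -0.59 in BRG1 KO and -0.50 in BRM KO. CHD6, CHD8 and CHD9 did not pass against parental, and the sign of CHD9 in BRG1 KO turned with the libraries used: it was 0.10 log2 over all of them, -0.62 without replicate 3 (edgeR adjusted p = 0.011) and 0.89 with replicate 3 alone (adjusted p = 0.0018).

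CHD1 and CHD2, motors linked to active transcription, did not pass against parental. CHD2 had 158, 100.1 and 224 CPM in BRG1 KO, 214, 348 and 310.5 CPM in BRM KO, and 225, 211 and 221 CPM in parental libraries. BRG1 KO was lower than BRM KO (log2 -0.85, edgeR adjusted p = 0.023), although 1 library of each overlapped. The call was lost without BRG1 KO replicate 1 or 2 or BRM KO replicate 2 or 3 (adjusted p up to 0.085). It was kept in 16 of 21 alternatives, over which the value ranged from -1.15 to -0.27 log2. CHD1 had 44.5 to 84.3 CPM in BRG1 KO, 58.7 to 64.8 CPM in BRM KO and 72.4 to 86.9 CPM in parental libraries.

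In the INO80 family, EP400, the motor of the TIP60 complex that deposits the histone variant H2A.Z, fell in BRG1 KO. It had 93.2, 72.4 and 141 CPM in BRG1 KO, 125, 164 and 127 CPM in BRM KO, and 172, 201 and 170.4 CPM in parental libraries. All BRG1 KO libraries were below the parental ones (log2 -0.83, SE 0.23, edgeR adjusted p = 0.013). With replicate 3 as the only BRG1 KO library the value was -0.35 and the call was lost (adjusted p = 0.21). BRM KO did not pass (-0.39, adjusted p = 0.2). A pseudogene, EP400P1, held 16.0 CPM on average beside 140.5 CPM for EP400, so some reads may be exchanged between them.

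SRCAP, another H2A.Z-depositing motor, missed the threshold and is given because its libraries split, a choice made after its values were seen. SRCAP had 75.6, 39.3 and 189 CPM in BRG1 KO, 79.1, 86.1 and 90.4 CPM in BRM KO, and 174, 206 and 199.6 CPM in parental libraries. Every BRM KO library was below every parental library, and BRG1 KO replicates 1 and 2 were too, while BRG1 KO replicate 3 was level with the parental libraries. The log2 fold changes were -0.93 in BRG1 KO (SE 0.44, edgeR adjusted p = 0.11) and -1.18 in BRM KO (SE 0.44, adjusted p = 0.06). Because the spread is shared by all 9 libraries, that of the BRG1 KO libraries weighs on both tests: fitted to the BRM KO and parental libraries alone, SRCAP was lower, at -1.27 log2 (adjusted p = 1.8e-04). Without BRG1 KO replicate 3, the BRG1 KO value was -1.83 (adjusted p = 1.4e-04). SRCAP shares 74.1% of its exonic bases with AC106886.5 on the same strand. AC106886.5 had 70.2, 80.5 and 52.5 CPM in BRG1 KO, 52.0, 40.2 and 49.0 CPM in BRM KO, and 73.0, 80.0 and 72.6 CPM in parental libraries, so the division of reads between the pair is uncertain. The 128 tested genes within 2 Mb of SRCAP had a median of -0.49 in BRM KO and 0.01 in BRG1 KO.

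INO80 itself differed between the knockouts, with 53.7, 43.4 and 68.3 CPM in BRG1 KO and 86.2, 76.8 and 88.1 CPM in BRM KO (log2 -0.60, edgeR adjusted p = 0.019). Parental libraries had 58.2 to 75.6 CPM, below all BRM KO libraries and overlapping BRG1 KO, and neither knockout passed against them. The difference was lost without BRG1 KO replicate 1 or 2 or BRM KO replicate 1 or 3 (adjusted p up to 0.064). It was kept in 16 of 21 alternatives, over which the value ranged from -0.77 to -0.19 log2.

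HELLS (LSH), which helps to keep DNA methylated and is abundant in dividing cells, fell in BRM KO. It had 22.7, 28.4 and 35.6 CPM in BRG1 KO, 13.5, 7.35 and 6.78 CPM in BRM KO, and 32.9, 40.8 and 47.1 CPM in parental libraries. BRM KO libraries were below all others, while BRG1 KO and parental libraries overlapped. The log2 fold change was -2.13 in BRM KO (SE 0.28, edgeR adjusted p = 4.0e-04) and 1.65 between BRG1 KO and BRM KO (adjusted p = 7.6e-04), and both held in all 21 alternatives, while BRG1 KO did not pass against parental (-0.48, adjusted p = 0.18). The 20 cell division genes listed, such as MKI67 and the MCM helicase genes, all fell in BRM KO, with a median of -2.70, and 6 of 20 fell in BRG1 KO, with a median of -1.06. Their summed level was 1480 to 2648 CPM in BRG1 KO, 465 to 939 CPM in BRM KO and 3654 to 4784 CPM in parental libraries. The part of cell division in the HELLS result was not tested. ATRX, which deposits histone H3.3 at repeats, had 159, 96.2 and 284 CPM in BRG1 KO, 138 to 183 CPM in BRM KO and 126 to 147 CPM in parental libraries, and did not pass (log2 0.39 and 0.28).

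Shares within paralogue families put these changes together. Each share is the percent of the family's summed TPM, without a test. SMARCA1 made up 70.0, 66.0 and 59.3% of ISWI ATPase TPM in BRG1 KO, 43.5, 44.3 and 48.8% in BRM KO, and 26.6, 20.8 and 21.0% in parental libraries. It was thus the larger ISWI transcript pool in every BRG1 KO library and the smaller one in every parental library. Counted in reads, where the long SMARCA5 transcript weighs more, the mean shares were 47.1% in BRG1 KO, 28.8% in BRM KO and 12.4% in parental libraries, with the same order. SMARCD3 reached 12.1, 13.2 and 10.3% of SMARCD TPM in BRG1 KO and 5.98, 6.11 and 3.68% in BRM KO, against 0.931, 0.374 and 0.288% in parental libraries. It stayed a minor form next to SMARCD1 and SMARCD2 in all 9 libraries.

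BCL7A held 2.94, 2.54 and 1.67% of BCL7 TPM in BRG1 KO, 18.7, 14.6 and 16.9% in BRM KO, and 6.94, 4.54 and 4.74% in parental libraries. Its mean shares of the reads were 6.43% in BRG1 KO, 32.6% in BRM KO and 11.5% in parental libraries, with the same order. SS18L1 held 21.1, 21.1 and 20.1% of the SS18 pair in BRG1 KO, 38.6, 37.0 and 39.6% in BRM KO, and 23.5, 13.7 and 16.7% in parental libraries. The BRM KO shares of both genes stood above all other libraries. ARID1B held 40.6, 43.8 and 40.2% of the ARID1 pair in BRG1 KO, 27.0, 19.7 and 25.4% in BRM KO, and 30.4, 31.3 and 32.6% in parental libraries, so the 3 groups did not overlap. CHD3 held 38.2 ± 5.47% of the CHD3, CHD4 and CHD5 sum in BRG1 KO, 39.2 ± 4.50% in BRM KO and 24.0 ± 2.96% in parental libraries (SD, n = 3 each). The short CHD4-249 transcript adds to CHD4 in BRG1 KO replicates 1 and 2. Counted in reads, the mean CHD3 shares were 38.6% in BRG1 KO, 32.2% in BRM KO and 18.6% in parental libraries.

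**Figure D5:**
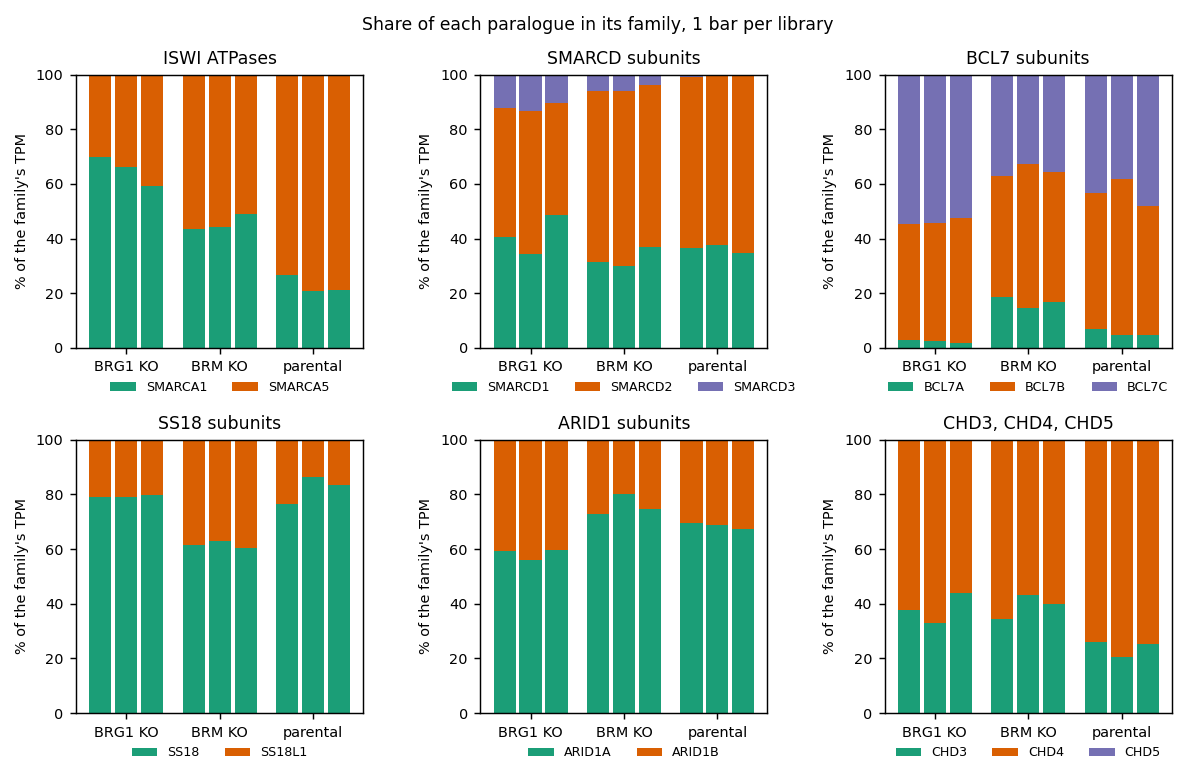
Shares of paralogues in 6 families. Each bar is 1 library and adds the members' shares of the family's TPM to 100%, with groups in the order BRG1 KO, BRM KO, parental. The SMARCA1 share is 59.3 to 70.0% in BRG1 KO, 43.5 to 48.8% in BRM KO and 20.8 to 26.6% in parental libraries.

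Set directly against each other, BRG1 KO exceeded BRM KO in 12 of 42 members and was lower in 7 (edgeR adjusted p under 0.05), beside 21.6% and 23.8% of all tested genes, and 12 of these 19 calls passed with any 1 library left out. The count of lower members was 14 without BRG1 KO replicate 3, 4 without BRG1 KO replicate 1 or 2, and 3 without BRM KO replicate 3, where 25.3%, 20.8%, 21.2% and 19.1% of all genes were lower. The higher members were ARID1B, DPF1, DPF3, BRD7, BRD9, SMARCD3, BCL7C, SS18, BCL11A, SMARCA1, CHD3 and HELLS, and the lower ones DPF2, SMARCD2, BCL7A, SS18L1, CHD2, CHD7 and INO80. BCL7C was higher in BRG1 KO than in BRM KO by 0.81 log2 (adjusted p = 0.0039) and SS18 by 0.87 (adjusted p = 0.0021, and 0.056 by limma on log2(TPM + 1)). SS18L1 was lower (-0.41, adjusted p = 0.043), a call kept in 8 of 21 alternatives and lost, among others, without parental replicate 3, BRG1 KO replicate 1 or 2, or BRM KO replicate 1 or 3 (up to 0.13).

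The partner proteins of these ATPases were counted from lists, to be read beside the 21.6% of all tested genes that rose and 21.9% that fell in BRG1 KO, and the 21.0% that rose and 16.4% that fell in BRM KO. Of 10 tested ISWI partners, 3 fell in BRG1 KO and 4 in BRM KO, with list medians of -0.32 and 0.08 log2, beside -0.01 and 0.09 over all genes. BAZ1A, which pairs with SMARCA5 in the ACF complex, had 42.2 to 63.4 CPM in BRG1 KO, 132 to 152 CPM in BRM KO and 133 to 142 CPM in parental libraries (log2 -1.48 in BRG1 KO, edgeR adjusted p = 8.5e-05). POLE3 and RBBP7, histone-binding partners, fell in BRM KO, at -0.78 and -0.76 log2 (adjusted p = 0.0089 and 0.0019). Of 10 NuRD partners, 2 rose and 4 fell in BRG1 KO, and 1 rose and 3 fell in BRM KO, with medians of 0.25 and -0.18. CDK2AP1, a small NuRD subunit, had 61.9 to 91.2 CPM in BRG1 KO, 20.6 to 26.1 CPM in BRM KO and 52.0 to 73.2 CPM in parental libraries (log2 -1.40 in BRM KO, adjusted p = 4.1e-04). MTA3, a NuRD scaffold known from breast epithelium, rose by 0.86 in BRG1 KO (adjusted p = 3.8e-04) and 0.39 in BRM KO (adjusted p = 0.034). MBD2, which binds methylated DNA, changed by -0.60 in BRG1 KO (adjusted p = 0.021) and -0.63 in BRM KO (adjusted p = 0.019).

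Of 27 subunits of the INO80, SRCAP and TIP60 complexes, 3 rose and 7 fell in BRG1 KO, and 2 rose and 8 fell in BRM KO, with medians of -0.06 and -0.02. The share that fell in BRG1 KO is near that of all genes. YEATS4, a reader of acetylated histones, had 9.52 to 11.5 CPM in BRG1 KO, 8.79 to 9.84 CPM in BRM KO and 16.2 to 21.2 CPM in parental libraries (log2 -0.85 and -1.05, edgeR adjusted p = 0.0026 and 0.0012). UCHL5, a deubiquitinase of INO80, changed by -0.74 in BRG1 KO and -0.87 in BRM KO (adjusted p = 0.0031 and 0.0019). TFPT, another INO80 subunit, rose in BRG1 KO, to 24.8 to 37.8 CPM against 13.9 to 16.4 CPM in parental libraries (log2 0.99, adjusted p = 0.0012). The 12 other SNF2-family ATPases had 5 lower in BRG1 KO and 3 in BRM KO, with medians of -0.37 and -0.15. RAD54L and RAD54B, motors of homologous recombination, changed by -2.67 and -2.56 in BRM KO (adjusted p = 4.7e-04 and 3.1e-04) and by -1.09 and -1.25 in BRG1 KO (adjusted p = 0.026 and 0.0072). ZRANB3, which remodels stalled replication forks, changed by -1.20 in BRM KO (adjusted p = 0.002) and -0.67 in BRG1 KO (adjusted p = 0.028).

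Of 5 partners of HELLS and ATRX, 2 fell in BRG1 KO and 4 in BRM KO, with medians of -0.34 and -1.14. CDCA7, which recruits HELLS to chromatin, changed by -1.84 in BRM KO (edgeR adjusted p = 5.0e-04) and did not pass in BRG1 KO (-0.34, adjusted p = 0.29). Its paralogue CDCA7L changed by -1.37 in BRM KO (adjusted p = 8.1e-04) and -0.93 in BRG1 KO (adjusted p = 0.0046). DAXX, the H3.3 chaperone that works with ATRX, changed by -1.14 in BRM KO (adjusted p = 3.0e-04) and did not pass in BRG1 KO (-0.21, adjusted p = 0.26).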

How the data were processed

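RNA-seq of 9 H358 libraries in 3 groups was used. Per the file headers, the deposited values are the authors' estimated counts per transcript from Salmon, not normalized. Salmon, DESeq2 and the hg38 build appear in the submitters' processing notes. TPM, which the authors deposited beside them per the file headers, are scaled for length and to a fixed total. The effective lengths, also deposited there, served 1 alternative. The strand setting, versions and annotation were not given in the sources used here.

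Of 203835 transcripts, 203746 were assigned to 58237 genes of GENCODE release 29 on hg38, 202728 with the same version; the other 89 took up to 0.0193% of the reads. Estimated counts were summed per gene, rounded and tested with edgeR 4.0.16 (R 4.3.3): filterByExpr (18205 genes), TMM (factors 0.964 to 1.04), glmQLFit (robust) on all 9 libraries with 6 residual degrees of freedom, two-sided quasi-likelihood F tests, and Benjamini-Hochberg adjustment over all genes tested, threshold 0.05. The common biological coefficient of variation was 0.253. Every adjusted p in the text is of this kind unless a setting is named. The SE is approximate, the absolute log2 fold change over the square root of F. Depth was 31964385 to 40673480 reads, and intervals cover counting error only. The test was also run on simulated counts, which held few changed genes and no shift by transcript length between libraries.

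Alternatives used limma 3.58.1 and DESeq2 1.42.0, among others. Members with a called log2 change of at least 0.8 and a mean of at least 1 CPM in the higher group are given per library; per-library values of other members were added after they were seen. Partner lists are described by up to 3 called genes with the largest change. The member rule uses gene names alone, but members and lists were chosen with earlier results of these data known. Promoter windows come from RefSeq.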

Additional observations from a re-analysis of the deposited data

Results flagged for a closer look

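DPF3 and BCL7A were called in opposite directions in the 2 knockouts, and the difference between the knockouts was itself tested. For DPF3, BRG1 KO minus BRM KO was 7.75 log2 as fitted (edgeR adjusted p = 1.2e-05). With 291 reads over the BRG1 KO libraries and 1 over the BRM KO libraries, the ratio was 293, with a 95% counting interval of 52.1 to 11604. For BCL7A, BRG1 KO minus BRM KO was -2.28 log2 (edgeR adjusted p = 2.7e-04), with 6.37 ± 2.90 CPM in BRG1 KO, 31.0 ± 5.27 CPM in BRM KO and 13.1 ± 2.48 CPM in parental libraries (SD, n = 3 each). Both differences passed under all 21 alternatives.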

How the results depend on the processing

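Over 21 alternatives, 6 of 15 member calls in BRG1 KO against parental, 5 of 13 in BRM KO against parental and 9 of 19 between the knockouts passed under every alternative. Leaving out 1 library at a time gave 6 to 8 higher and 4 to 19 lower members in BRG1 KO (8 and 7 in the main fit), 3 to 6 higher and 4 to 17 lower in BRM KO (5 and 8), and 10 to 13 higher and 3 to 14 lower between the knockouts (12 and 7). In these fits, 15.7 to 21.3% of all genes were higher and 16.8 to 26.7% lower in BRG1 KO. In BRM KO the shares were 13.1 to 21.4% and 11.1 to 22.2%, and between the knockouts 15.5 to 22.6% and 19.1 to 25.3%. With parental replicate 1 and BRG1 KO replicate 3 left out, 22 members were lower in BRG1 KO, 16 in BRM KO and 14 between the knockouts. The shares of all genes that were lower in that fit were 26.7%, 22.7% and 26.4%. The fit with BRG1 KO replicates 1 and 2 left out was chosen after seeing the data. It assumes that the lone BRG1 KO replicate varies like the other groups. Limma on log2(TPM + 1) called 4 members higher in BRG1 KO, beside 13.9% of all genes. The GC content and length correction called 19 lower in BRM KO, beside 20.9% of all genes. The fit to the BRM KO and parental libraries alone called 17, beside 24.4%. The cause of these shifts was not tested. Among values that passed with all libraries or under the alternative, those that changed sign were 0.65 for PBRM1, 0.56 for CHD1 and 0.44 for CHD9 between the knockouts with BRG1 KO replicates 1 and 2 left out (-0.06, -0.06 and -0.44 with all libraries), 0.15 for CHD4 and 0.42 for CHD8 in BRG1 KO with the effective length offset (-0.44 and -0.23 without it), and, for CHD9 in BRG1 KO, -0.62 without BRG1 KO replicate 3 (0.34 without replicate 2) and -0.69 without parental replicate 1 as well (0.10 with all). A further 180 values, in 46 of the members' comparisons, changed sign and passed in neither fit, such as ARID1A in BRG1 KO (-0.23, and 0.32 with BRG1 KO replicates 1 and 2 left out). A replicate block gave 7 higher and 8 lower in BRG1 KO, 5 and 9 in BRM KO, and 12 and 6 between the knockouts. The shares of all genes were, in the same order, 20.0% and 21.1%, 19.9% and 15.2%, and 19.8% and 23.0%. Same-numbered libraries correlated at -0.0792 to 0.175 in their deviations, and differently numbered ones at -0.154 to 0.118. Whether the numbers pair the libraries was not given, and these correlations cannot decide it. Depth limits DPF3, BCL11A and CHD5, and BCL11B and ACTL6B could not be tested.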
